A study of Mus musculus with 25 samples.

Results

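The peaks described here are the regions of open chromatin that were called in all 7 groups of fetus/graft-specific CD8+ T cells, and they are called shared peaks below. A peak of the deposited count table was taken as shared when at least 1 bp of it overlapped a called peak in each of the 7 deposited group lists. The members were thus chosen by the peak calls of these same libraries, and their number of lists is a description. By this rule 3245 of the 13527 peaks, 24.0%, were shared. ATAC-seq, which marks open chromatin by the cuts of a transposase, was run on T_FGS, endogenous CD8+ T cells of spleen and lymph nodes sorted from young adult C57BL/6 females with a tetramer for an OVA peptide. The antigen is carried as a transgene by the paternal and graft donor strain, so that T_FGS are the part of the CD8+ response that this peptide reveals. Naive mice (3 libraries) had no graft and no pregnancy, and Sensitized mice (4 libraries) had received and rejected an allogeneic skin graft. N+P mice carried a semi-allogeneic pregnancy without a graft before it, and S+P mice carried one after a graft. Their cells were taken within days after delivery and split by PD1, an inhibitory receptor, and CD73, an ectoenzyme: PD1- cells are N+P C1 (3 libraries) and S+P C4 (4 libraries), PD1+CD73+ cells are N+P C5 (3 libraries) and S+P C5 (4 libraries), and PD1+CD73- cells are S+P C7 (4 libraries). All groups share the C57BL/6 strain and the tetramer gate, and each list pools the libraries of its group.

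Open chromatin in a T cell is of several kinds. Promoters of genes that nearly all cells use lie in stretches rich in C, G and the dinucleotide CpG, called CpG islands, and are open in most cell types. Distal elements, between genes or in introns, are more often open in a single lineage or state, and in CD8+ T cells they carry much of the difference between naive, effector, memory and exhausted cells. Open promoter chromatin alone does not show that a gene is transcribed.

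The shared peaks were for the most part CpG-rich promoters. The midpoint was at most 1000 bp from a protein-coding transcript start in 2678 peaks (82.5%, 95% Wilson interval 81.2 to 83.8%), against 48.6% of the peaks in 1 to 6 lists and 56.7% of all peaks. The others were 290 intergenic peaks, 239 peaks in introns and 38 in exons. In the central 300 bp, 74.4% had at least 50% GC and an observed to expected CpG ratio of at least 0.6, and are called CpG-island-like, against 49.5% of all peaks. Within promoters the difference was smaller: 86.7% of the shared promoters and 77.5% of the other promoters were CpG-island-like. Starts of different genes on opposite strands within a 1000 bp window, whichever way they pointed, were found in 15.9% of the shared promoters and 9.64% of the other promoters. Peaks are not replicates, so these shares carry no test.

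The promoter share was flat over 1 to 3 lists and higher with each further list. It was 37.1% for peaks in 1 list, 38.3% for 2, 36.7% for 3, 47.7% for 4, 55.3% for 5, 69.8% for 6 and 82.5% for 7. Median length rose alongside, from 575.5 bp in 1 list to 1449 bp in 7, and so did the median normalized count, from 220 to 975.

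**Figure D1:**
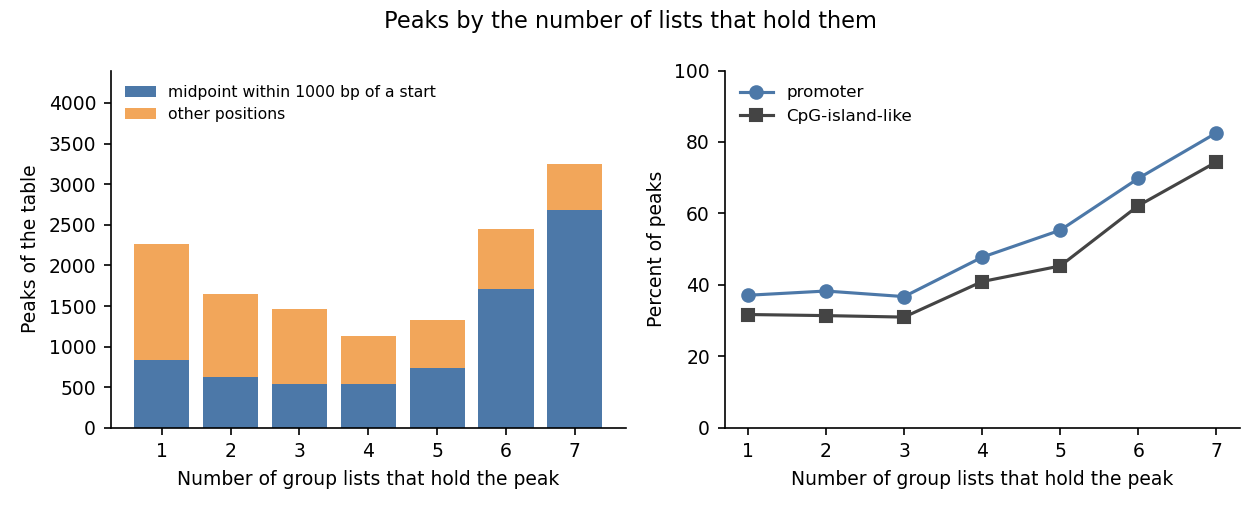
Left, peaks of the table by the number of group lists that hold them, as stacked bars of peaks with their midpoint within 1000 bp of a start (blue) and others (orange). Right, percent of these peaks that are promoters (circles) or CpG-island-like (squares), from 37.1% and 31.7% in 1 list to 82.5% and 74.4% in 7.

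Membership depended most on the S+P C4 list. That list held 3788 peaks, of which 88.2% touched a shared peak, and the other lists held 8479 to 11384 peaks, of which 29.3 to 38.9% did. Just outside the rule, 2227 peaks were missing from the S+P C4 list alone, while between 11 and 73 peaks were missing from any other list alone. In S+P C4 the peaks just outside were not closed: their median normalized count per kb was 515, against 675 for the shared peaks, and in S+P C5 the values were 518 and 662. Peaks missing from the S+P C4 list alone were promoters in 70.6% and CpG-island-like in 63.5%. Outside the rule there were also 487 peaks with a mean normalized count above the shared median of 975. An example is the promoter peak of Nr4a3, an orphan nuclear receptor induced by T cell receptor signaling, with a mean normalized count of 4442 and missing from the lists of both PD1+ S+P groups. The largest log2 difference between its group means was 0.14. A list records whether a peak was called in the pooled libraries of a group, and a peak missing from a list can hold as many reads as one in it.

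Sequences are shown here as examples of promoters and of distal shared peaks, and because 1 of them is a repeat that matters for the counts below. All are from GRCm39, plus strand, with capitals marking matches to the motif strings named after them. The first 3 lie immediately before the start of Hdgfl2 (chr17:56386213-56386462), which had the highest count per kb of any shared promoter, of Otud4 (chr8:80365731-80365980), 1 of the most even, and of Runx3 (chr4:134847702-134847951), a factor that sets CD8 T cell identity. The others are the central 300 bp of distal peaks nearest to Tgfbr2 (chr9:116198173-116198472), S1pr1 (chr3:115476482-115476781), Enpp6 (chr8:47394413-47394712), Tnfrsf14 (chr4:155020933-155021232) and Lrrc4c (chr2:98496979-98497278).
Hdgfl2: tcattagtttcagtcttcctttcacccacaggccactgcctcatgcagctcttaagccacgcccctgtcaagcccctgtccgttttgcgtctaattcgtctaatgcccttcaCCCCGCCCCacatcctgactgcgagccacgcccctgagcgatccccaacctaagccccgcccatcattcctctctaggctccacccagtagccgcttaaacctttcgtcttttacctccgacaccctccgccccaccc
Otud4: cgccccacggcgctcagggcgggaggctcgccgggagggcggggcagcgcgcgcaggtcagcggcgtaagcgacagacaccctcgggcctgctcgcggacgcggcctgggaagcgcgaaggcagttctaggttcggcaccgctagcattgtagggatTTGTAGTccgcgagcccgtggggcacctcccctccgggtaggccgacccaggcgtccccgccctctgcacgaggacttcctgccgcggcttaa
Runx3: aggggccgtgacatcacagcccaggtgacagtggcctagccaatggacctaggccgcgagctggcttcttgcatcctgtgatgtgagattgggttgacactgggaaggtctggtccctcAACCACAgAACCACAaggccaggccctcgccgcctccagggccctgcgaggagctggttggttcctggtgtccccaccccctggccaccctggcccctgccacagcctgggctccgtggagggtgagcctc
Tgfbr2: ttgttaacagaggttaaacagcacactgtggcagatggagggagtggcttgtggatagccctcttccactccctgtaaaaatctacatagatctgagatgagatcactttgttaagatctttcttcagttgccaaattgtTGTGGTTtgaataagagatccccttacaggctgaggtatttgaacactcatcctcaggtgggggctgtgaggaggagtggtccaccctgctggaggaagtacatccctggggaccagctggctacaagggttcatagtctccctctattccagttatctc
S1pr1: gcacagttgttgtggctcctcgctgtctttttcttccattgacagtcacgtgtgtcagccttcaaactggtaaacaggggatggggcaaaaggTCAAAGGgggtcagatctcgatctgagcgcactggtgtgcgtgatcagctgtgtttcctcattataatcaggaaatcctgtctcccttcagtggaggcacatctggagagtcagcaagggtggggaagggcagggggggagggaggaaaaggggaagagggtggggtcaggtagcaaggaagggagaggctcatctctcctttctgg
Enpp6: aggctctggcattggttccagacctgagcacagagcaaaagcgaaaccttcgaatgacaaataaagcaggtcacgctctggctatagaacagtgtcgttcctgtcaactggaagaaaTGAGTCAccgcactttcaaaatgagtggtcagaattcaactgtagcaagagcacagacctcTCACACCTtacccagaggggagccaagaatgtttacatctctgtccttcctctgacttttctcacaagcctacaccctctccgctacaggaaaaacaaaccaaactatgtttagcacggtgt
Tnfrsf14: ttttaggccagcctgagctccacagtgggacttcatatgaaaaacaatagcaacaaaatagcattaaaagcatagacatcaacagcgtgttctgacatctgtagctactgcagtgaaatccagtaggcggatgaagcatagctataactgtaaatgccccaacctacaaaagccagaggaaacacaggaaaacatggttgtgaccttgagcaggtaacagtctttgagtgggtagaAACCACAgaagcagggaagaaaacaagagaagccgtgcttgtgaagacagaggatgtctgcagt
Lrrc4c: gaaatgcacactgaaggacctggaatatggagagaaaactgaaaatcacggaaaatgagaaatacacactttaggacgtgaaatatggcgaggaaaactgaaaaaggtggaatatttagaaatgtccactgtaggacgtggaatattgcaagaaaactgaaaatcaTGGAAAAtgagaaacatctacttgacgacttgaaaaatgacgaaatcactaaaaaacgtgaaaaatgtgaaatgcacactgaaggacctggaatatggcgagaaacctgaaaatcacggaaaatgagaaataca
Capitals mark a GC box in Hdgfl2, a ZNF143 string in Otud4, RUNX strings in Runx3, Tgfbr2 and Tnfrsf14, a TCF/LEF string in S1pr1, an AP-1 and a T-box string in Enpp6 and an NFAT string in Lrrc4c. The Otud4 window held 32 CpG dinucleotides in 250 bases and that of Runx3 held 7, while the distal windows held from 0 in 300 at Tgfbr2 to 7 at Enpp6 and 9 at Lrrc4c, so single windows overlapped in CpG content. The Lrrc4c window repeats itself: shifted by 234 bases, 64 of its 66 overlapping bases were the same. A tandem repeat of this unit length is known in mouse as the major satellite of pericentromeric chromatin.

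Motif strings were searched on both strands of the central 300 bp, and no string contains another. The NFY string CCAATCA, the CCAAT box of many promoters, was present in 11.8% of the shared promoters and 6.57% of the other promoters, and in 6.46% of all peaks. Among peaks outside promoters it was present in 7.05% of the shared and 3.61% of the others. The GC box GGGGCGGGG of Sp and Klf factors was in 18.3% of the shared and 16.8% of the other promoters, and in 11.1% of all peaks. The ZNF143 string ACTACAA was in 4.03% and 2.72% of shared and other promoters, but outside promoters in 2.12% and 3.33%. The other promoter strings were less frequent in the shared promoters. ETS (CCGGAAGT) was in 7.69% and 8.27% of shared and other promoters, YY1 (AAGATGGC) in 4.78% and 5.59%, NRF1 (GCGCATGCG) in 2.54% and 3.08%, and CRE (TGACGTCA) in 2.58% and 2.82%. The order turned for CRE in the central 500 bp, with 4.11% and 3.99%.

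Strings of factors that act mainly at distal elements were read outside promoters. The RUNX string AACCACA was present in 18.7% of the shared and 20.2% of the other peaks there, and the AP-1 string TGANTCA in 13.1% and 16.1%. The NFAT string TGGAAAA was in 7.94% and 7.24%, the TCF/LEF string CCTTTGA in 6.35% and 7.67%, and the T-box string AGGTGTGA in 2.65% and 3.06%. The CTCF motif was found in 1 of the 567 shared peaks outside promoters and in 86 of the 5290 others. In the central 500 bp the order turned for RUNX, with 28.0% of the shared and 26.5% of the others, and CTCF was in 1.23% and 2.16%. The strings are short, so these shares describe letters and not binding.

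The share of genes with a shared promoter varied between gene lists, and lists of general cell function lay on both sides of the share over all genes. Of 21751 protein-coding genes, 8397 had a promoter peak in the table, and for 3170 of these, 37.8%, a promoter peak was shared. The shares were 52.6% for chaperones (30 of 57 genes with a promoter peak), 46.7% for the spliceosome (28 of 60), 42.6% for the mitochondrial ribosome (23 of 54), 41.4% for the cytosolic ribosome (29 of 70), 38.8% for oxidative phosphorylation (26 of 67), 34.6% for Zfp zinc-finger genes (79 of 228) and 27.3% for solute carriers (36 of 132). The other general lists lay between 26.5% for aminoacyl-tRNA synthetases and 35.6% for translation initiation.

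Of 15 T cell identity genes with a promoter peak, 3 had a shared one, among them Cd3d, a signaling chain of the T cell receptor complex, and Runx3. Among 11 naive and memory genes with a promoter peak, such as Tcf7, Lef1, Ccr7 and Il7r, none had a shared one. Among 17 exhaustion and effector genes the only one was Id2, an inhibitor of E proteins. Of the genes behind the sort gates, Pdcd1 had no promoter peak in the table, and the promoter peak of Nt5e, which encodes CD73, was in 1 list. Of 13 CD8 T cell markers, 11 had a promoter peak in the table, the others being Cd2 and Thy1. No promoter peak was found for any of 7 B cell, 4 NK cell and 5 erythroid markers, including Pax5, Ncr1 and Gata1. Of 7 myeloid markers Cd68 had one, and of 4 CD4 and regulatory T cell markers Foxp3 had one, and neither was shared.

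The Cd3d and Runx3 promoters illustrate the size of the changes at identity genes. The Cd3d peak counts as a promoter by a transcript start 656 bp from its midpoint. That midpoint lies within the gene, 4694 bp from the gene start. At Cd3d the normalized counts were 895, 841 and 696 in Naive, 695, 666 and 652 in N+P C1, 721, 672 and 713 in N+P C5, 1032, 739, 691 and 553 in Sensitized, 694, 940, 1120 and 993 in S+P C4, then 834, 902, 1050 and 822 in S+P C5, and 905, 1035, 1115 and 1066 in S+P C7. The S+P C5 libraries all lay above the N+P C5 libraries, with a log2 difference of 0.36 ± 0.16 (SE) and an adjusted p of 0.0502 by DESeq2. At Runx3 the means were 664 ± 22.0 (SD, n = 3) in N+P C5 against 832 ± 48.4 (n = 4) in S+P C5, higher by 0.32 ± 0.14 on the log2 scale (adjusted p 0.0325). At both genes the difference was also within the bound defined below (adjusted p 9.26e-04 and 2.58e-05).

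Before the comparisons, some libraries have to be set apart. The counts in peaks numbered 2430890 for S+P C4 replicate 1, the lowest, and 25419715 for the deepest library, and shared peaks took 41.3 to 45.0% of them (median 43.6%). Taking all peaks, each library was compared with the mean of every group by the correlation across peaks of its deviations. Of the 25 libraries, 8 were nearest to a group other than their own. The nearest group was N+P C5 for Sensitized replicates 3 and 4 (r 0.758 and 0.579), S+P C7 for Sensitized replicate 1 (0.657), N+P C1 for Naive replicate 3 (0.933) and N+P C5 for S+P C4 replicate 1 (0.250). It was S+P C7 for S+P C4 replicate 3 (0.782, with 0.599 to its own group), N+P C5 for N+P C1 replicate 3 (0.904) and N+P C1 for N+P C5 replicate 1 (0.925). The spread between Sensitized libraries was the widest, with a median SD over shared peaks of 0.16 on the log2 scale, against 0.076 in N+P C5. The labels do not state that libraries came from separate animals, and p-values measure the spread between these libraries. In bulk chromatin, fewer cells with an open site and less opening per cell cannot be told apart.

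**Figure D2:**
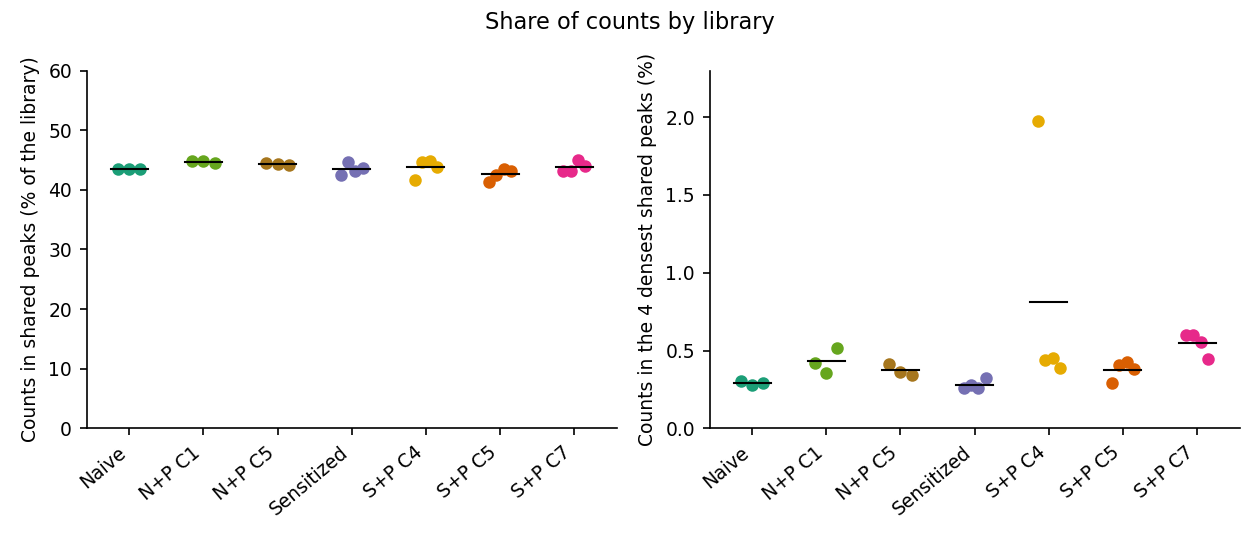
Left, percent of the counts of each of the 25 libraries that fell in shared peaks, by group. Right, percent in the 4 shared peaks of highest count per kb; points are libraries and lines group means, and S+P C4 replicate 1 lies at 1.97% where the others lie between 0.257 and 0.603%.

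The shared peaks differed between groups often, and by little. The largest log2 difference between group means had a median of 0.37 over the shared peaks, 0.54 over all peaks and 0.64 over the peaks in 1 to 6 lists. Shared promoters had a median of 0.35 and other promoters 0.45, while outside promoters the medians were 0.51 for shared and 1.09 for other peaks. A range over 0.9, which is a 1.87-fold difference and the fold threshold of the study, was reached by 35 of the 2678 shared promoters (1.31%) and by 89 of the 567 shared peaks outside promoters (15.7%), against 27.7% of all peaks. In a likelihood ratio test of any difference among the 7 groups (DESeq2, adjusted p under 0.1), 2398 shared peaks passed, 73.9%, against 78.4% of all peaks. Of those 2398 peaks, the highest group was most often S+P C7 (807 peaks, 33.7%, against 30.7% of all differing peaks) or N+P C1 (767 peaks, 32.0% against 21%). The lowest was most often S+P C7 (702 peaks, 29.3% against 34.1% of all) or S+P C5 (490 peaks, 20.4% against 10.2%).

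**Figure D3:**
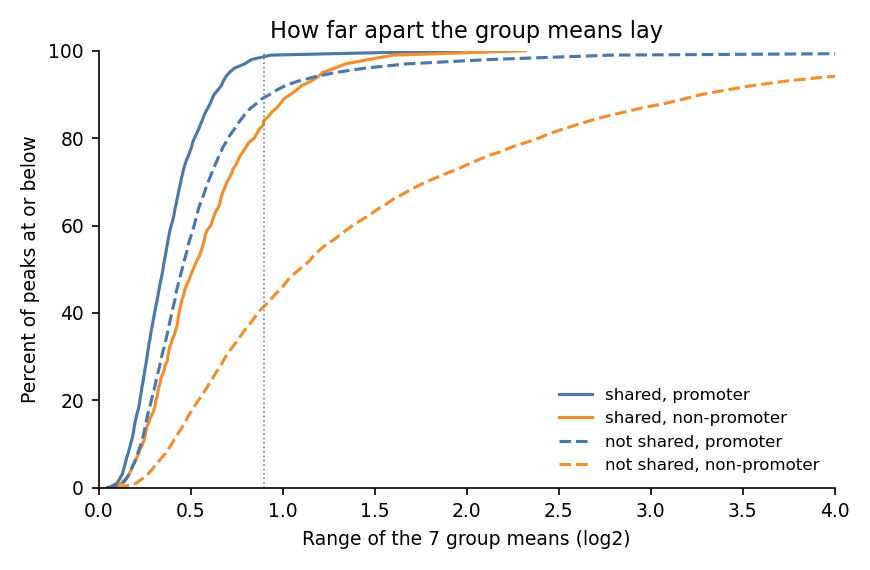
Cumulative share of peaks, in percent, by the largest log2 difference between the 7 group means, for shared and other peaks in and outside promoters, with the axis ending at 4 and a dotted line at 0.9. Medians are 0.35 and 0.51 for the shared promoters and other shared peaks, and 0.45 and 1.09 for the peaks in 1 to 6 lists.

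The most even shared peaks show what a constant site looks like in these data. The promoter of Mynn, a zinc-finger gene, had the smallest range, 0.055. Its normalized counts were 1346, 1594 and 1480 in Naive, 1426, 1414 and 1421 in N+P C1, 1353, 1445 and 1471 in N+P C5, 1493, 1597, 1386 and 1398 in Sensitized, 1347, 1569, 1563 and 1353 in S+P C4, then 1380, 1609, 1540 and 1344 in S+P C5, and 1389, 1370, 1619 and 1372 in S+P C7. All groups overlapped. Among the shared peaks with a mean count above the shared median, the promoters of Tut4, which adds uridines to RNA, and Otud4, a deubiquitinase gene, followed with ranges of 0.065 and 0.072. Outside promoters the most even of these were a peak in an exon of Arid5a (0.097), a peak 6398 bp from Akna (0.12) and a peak 314481 bp from Klf3 (0.12). The Arid5a peak is 3256 bp long and spans a transcript start, which lies 1053 bp from its midpoint. These peaks were chosen for their evenness, so these ranges carry no test.

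The shared promoters with the most counts per kb were those of Hdgfl2 (1539), Zfp317 (1531), Khsrp (1480), a splicing and mRNA decay factor, and Hsd17b12 (1452), an enzyme of fatty acid elongation against a median of 676 over the shared and 534 over all promoters. Hdgfl2 had group means between 2234 ± 168 in N+P C1 and 2501 ± 276 in S+P C7. Outside promoters the densest peaks held far more counts per kb. The 4 densest were on the unplaced contig MU069435.1 (29325 to 31129, 8934 per kb), at the satellite near Lrrc4c printed above (chr2:98496540-98497718, 2717 per kb) and its neighbor (chr2:98492535-98493369, 2354 per kb), which lie inside the lncRNA genes Gm75300 and Gm75297, and over the ribosomal RNA gene Rn18s-rs5 (chr17:40153838-40159779, 2702 per kb). Only the Lrrc4c peak printed above was searched for a repeat. Reads that mapped to more than 1 place had been removed by the study, so counts at multi-copy sequence rest on the reads with a single best place and are uncertain.

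At these 4 peaks S+P C4 replicate 1 stood apart. At Rn18s-rs5 it held a normalized count of 104737, and the other S+P C4 libraries held 15652, 14813 and 13561. At the satellite it held 19293, against 3008, 3286 and 1303. The 4 densest peaks took 1.97% of its counts and 0.257 to 0.603% of those of the other libraries. The part of this library in the calls at these peaks is given with each comparison.

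Shared peaks were then compared between groups in 10 comparisons, which ask how sensitization, pregnancy and the sorted phenotype differ at sites called in all groups. Where a sorted group is set against Naive or Sensitized, the sort gate and pregnancy cannot be told apart. Calls needed a DESeq2 adjusted p under 0.1 together with a log2 fold change over 0.9 in size. Since a missed threshold does not show that a site is alike, each peak was also tested for a log2 fold change smaller than 0.9 in size, and is called within the bound when that test passed at an adjusted p under 0.1. Over the 10 comparisons, 48 shared peaks were called at least once: 6 promoters (0.224% of the shared promoters) and 42 others (7.41%), among them 28 intergenic peaks, 11 in introns and 3 in exons. Over all peaks 21.2% were called at least once, 4.11% of promoters and 43.6% of the others. Within the bound lay between 95.6 and 99.9% of the shared peaks per comparison, against 73.8 to 95% of all peaks. Membership was drawn from peak lists of these same libraries and leaves out any site not called in some group, so the smaller ranges and fewer calls of shared peaks beside all peaks are a description and support nothing.

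**Figure D4:**
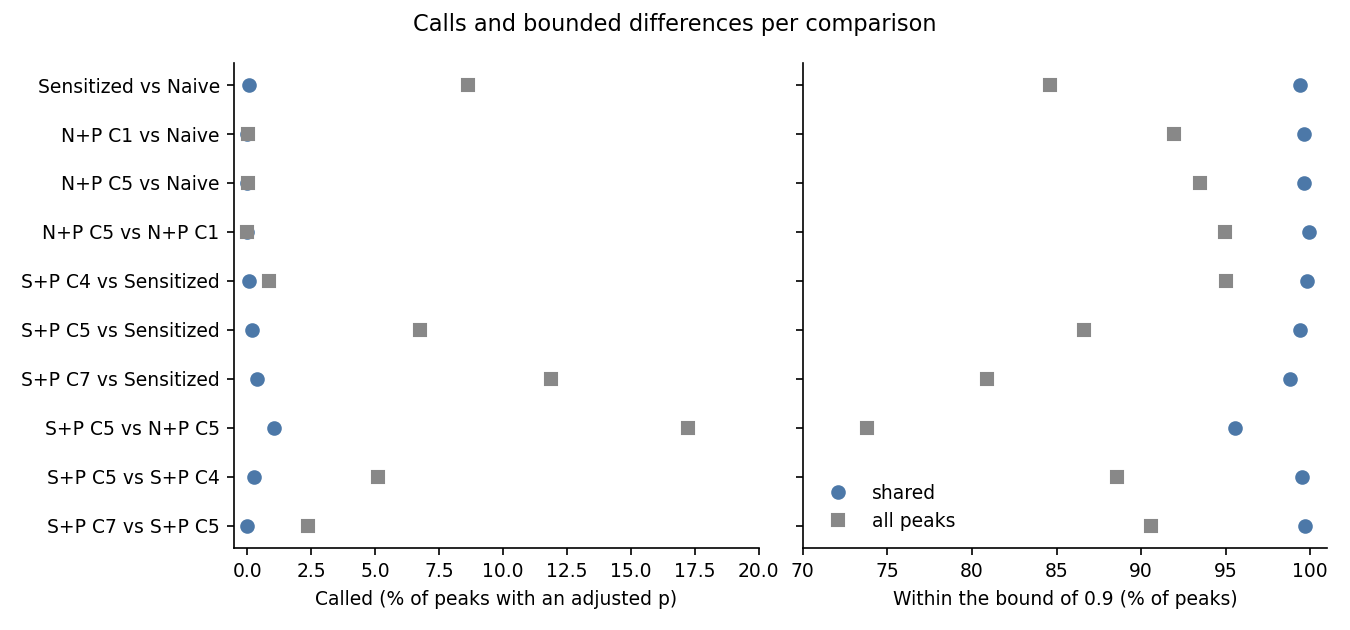
Percent of shared and of all peaks called (left) and within the bound of 0.9 (right) in each of the 10 comparisons. Circles are shared and squares all peaks; at most 1.05% of the shared peaks are called and at least 95.6% lie within the bound, and the right axis starts at 70.

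For sensitization alone, Sensitized vs Naive, 3 shared peaks were called, 2 higher and 1 lower, where 8.62% of all peaks were called (7.22% higher and 1.4% lower). At an adjusted p under 0.1 alone there were 296, 9.12% against 20.5% of all peaks. The bound held for 3226 (84.6% of all peaks). The promoter of Dcbld2, a neuropilin-like receptor, was higher: 473, 419 and 700 in Naive and 1031, 1476, 1028 and 1196 in Sensitized, with no overlap. It rose by 1.15 ± 0.15 on the log2 scale (adjusted p 3.53e-13). S+P groups had means of 1089 to 1216, against 679 in N+P C1 and 716 in N+P C5.

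A distal peak near Fasl (chr1:161601890-161603384, 13438 bp from the start of the gene for the death ligand) held 431, 435 and 473 in Naive and 1162, 1167, 596 and 721 in Sensitized, and rose by 1.03 ± 0.26 on the log2 scale (adjusted p 0.0013). The lower values are those of replicates 3 and 4, and all 4 lay above Naive. The call was lost without Sensitized replicate 1 or 2, where it came down to 0.89. A peak 8063 bp from Tnfrsf14, the receptor HVEM, held 2098, 2010 and 1495 in Naive and 677, 758, 1268 and 1179 in Sensitized, and fell by 0.94 ± 0.25 on the log2 scale (adjusted p 0.00163), with no overlap. This call was lost without Naive replicate 1 or 2 or Sensitized replicate 1 or 2. The count of calls was 5 without Naive replicate 3 and 1, 9 and 7 without Sensitized replicate 2, 3 and 4 in turn. Without Sensitized replicates 3 and 4 together it was 18, 16 higher and 2 lower. Added then were, among others, an intergenic peak nearest to Cxcr4, peaks in introns of Adora2a and Cd82, and the promoter of Hpgds.

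The N+P groups gave 0 shared calls against Naive, both for N+P C1 vs Naive and for N+P C5 vs Naive, where 0.0205% and 0.0262% of the tested peaks were called. At an unadjusted p under 0.05 there were 872 and 799 shared peaks (2571 and 2361 of all 13527 peaks), and edgeR called 0 in both. Within the bound were 3233 and 3234 of 3245 (91.9% and 93.5% of all peaks). At an adjusted p under 0.1 with no fold threshold, 393 of the 2941 tested shared peaks passed in N+P C1 vs Naive (11.9% of all tested), 336 of them higher, and 203 of 2585 in N+P C5 vs Naive (7.87%), 170 of them higher. Over all tested peaks 483 were higher and 97 lower, then 253 and 48. edgeR gave 0 shared peaks at that threshold in either. Across the 3245 peaks, which share the same libraries, the log2 fold change went with log length at r 0.379 and 0.400. The part of peak length in these small shifts was not tested. In N+P C1 vs Naive 1 call appeared under other scalings, a peak near Ifngr1 (-0.92 by total counts), and 2 calls without Naive replicate 3.

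Between PD1+CD73+ and PD1- cells of N+P mice, 0 shared peaks were called (0% of all peaks), 17 passed an unadjusted p under 0.05 (308 of all peaks), edgeR called 0, and 3242 were within the bound (95% of all peaks).

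In PD1- cells of S+P mice, S+P C4 vs Sensitized, 2 shared peaks were called, both higher, where 0.858% of all peaks were called (0.562% higher and 0.296% lower), and 126 passed at an adjusted p under 0.1 alone (6.54% of all peaks). Both were among the 4 densest: the satellite peak near Lrrc4c (1.81 ± 0.60, adjusted p 0.0631) and the Rn18s-rs5 peak (2.32 ± 0.54, adjusted p 0.00281). The Sensitized libraries held 1157, 1933, 2044 and 2508 at the satellite, so that S+P C4 replicate 4, with 1303, overlapped them. At Rn18s-rs5 Sensitized held 7070, 6398, 6939 and 9456, below all S+P C4 libraries. Without S+P C4 replicate 1 the satellite was not called (0.41) and Rn18s-rs5 was (0.97). The satellite call was lost in 8 of 18 alternatives, and 1 call was left without Sensitized replicate 2, 3 or 4 or S+P C4 replicate 1. Within the bound were 3239 shared peaks (95% of all). On adjusted p alone edgeR gave 46 shared peaks (390 of all peaks).

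In PD1+CD73+ cells, S+P C5 vs Sensitized, 0 shared peaks were called higher and 6 lower (6.74% of all peaks were called, 3.08% higher and 3.67% lower), and 887 passed on adjusted p alone (32.9% of all). The bound held for 3225 (86.6% of all). The 6 were peaks nearest to Tgfbr2, Bach2, Rap2b, Cd47 and Fxyd3 and the promoter of Tle1, a corepressor. Tgfbr2 encodes a receptor for TGF-beta, and the peak lies 193523 bp from its start (chr9:116197862-116198783). It held 884, 917 and 871 in Naive, 707, 778 and 895 in N+P C1, 647, 721 and 838 in N+P C5, 940, 942, 898 and 881 in Sensitized, 664, 815, 813 and 898 in S+P C4, then 357, 306, 422 and 448 in S+P C5, and 433, 417, 701 and 786 in S+P C7. The S+P C5 libraries overlapped those of S+P C7 and lay below every library of the other groups. The log2 fold change was -1.25 ± 0.16 against Sensitized (adjusted p 5.81e-12), -1.06 ± 0.17 against S+P C4 (2.64e-08) and -0.94 ± 0.18 against N+P C5 (1.43e-06), the last lost in 6 of 16 alternatives.

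The peak in an intron of Bach2 (chr4:32342926-32344973), whose product is a repressor that keeps T cells in a naive or memory state, had the widest range of any shared peak apart from the Rn18s-rs5 peak, 2.12. It held 2638, 2476 and 2288 in Naive, 1761, 2055 and 2353 in N+P C1, 1777, 2068 and 2095 in N+P C5, 1256, 1416, 1925 and 1966 in Sensitized, 1848, 1968, 1140 and 1081 in S+P C4, then 890, 624, 776 and 752 in S+P C5, and 708, 478, 480 and 591 in S+P C7. Both PD1+ S+P groups lay below every other library. Against Sensitized the log2 fold change was -1.11 ± 0.18 for S+P C5 (adjusted p 8.72e-08) and -1.53 ± 0.18 for S+P C7 (7.39e-15). Without Sensitized replicates 3 and 4 it was -0.81 in S+P C5, under the fold threshold, and 4 calls were left for this comparison. Without S+P C5 replicate 1 there were 10.

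In PD1+CD73- cells, S+P C7 vs Sensitized, 1 shared peak was called higher and 11 lower (11.9% of all peaks were called, 3.84% higher and 8.03% lower), and 1576 passed on adjusted p alone (52.9% of all). For 3206 the bound held (80.9% of all). The higher peak was Rn18s-rs5, with 25437, 24248, 18464 and 16288 in S+P C7 (1.5 ± 0.54, adjusted p 0.0152). Without any 1 of the S+P C7 replicates it had no adjusted p and was not called, at 1.40 to 1.61. Lower were 4 promoters, of Tle1, Hpgds, which encodes a prostaglandin D synthase, Gadd45a, a stress and DNA damage gene, and Tiam1, an activator of Rac. The 7 other lower peaks lay in or nearest to Bach2, Ext1, Acer2, Msrb3, Stfa3, Cblb (340214 bp away) and Zfp51. A peak in an intron of Ext1, an enzyme of heparan sulfate synthesis, held 982, 1534, 1261 and 1391 in Sensitized and 583, 419, 550 and 482 in S+P C7, with no overlap, and fell by 1.34 ± 0.15 on the log2 scale (adjusted p 6.9e-16). Its mean was 783 in S+P C4 and was 854 for S+P C5. Without Sensitized replicates 3 and 4 there were 9 calls, and Gadd45a was not among them (-0.85). Without Sensitized replicate 1 there were 19.

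The most calls came from cells of the same gate with and without sensitization, S+P C5 vs N+P C5: 34 shared peaks, 14 higher and 20 lower, where 17.2% of all peaks were called (10.3% higher and 6.97% lower). The split depended on scaling: by total counts it was 22 and 14, by size factors of the shared peaks alone 25 and 13, and with loess offsets 29 and 12. Within the bound were 3101 (73.8% of all peaks). Higher peaks included those nearest to Enpp6, Fasl, Cxcr4, a chemokine receptor gene 174862 bp away, Tomm20, Cstad and Cmtm6. Also higher were peaks in introns of Rftn1, a lipid raft protein, and Cd82, a tetraspanin. Lower peaks included the promoters of Tle1, Hpgds, Gadd45a, Tiam1 and Zfp13 and peaks near S1pr1 and Tgfbr2 and in Bach2.

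The peak 45356 bp from Enpp6 had 370, 356 and 368 in N+P C5 against 813, 1180, 944 and 881 in S+P C5, and was higher by 1.38 ± 0.15 on the log2 scale (adjusted p 1.45e-18). It was 322, 396 and 331 in Naive and 704, 745, 465 and 588 in Sensitized, so that every library of grafted mice lay above every library of mice without a graft. The Rftn1 peak had a mean of 299 ± 3.12 in N+P C5 against 606 ± 59.4 in S+P C5 (1.01 ± 0.14, adjusted p 5.27e-12). The peak 32089 bp from S1pr1, the receptor that guides egress from lymph nodes, was lower: 1205, 1316 and 1395 in N+P C5 against 664, 686, 660 and 612 in S+P C5 (-0.99 ± 0.11, adjusted p 1.25e-16). With loess offsets it was -0.89 and under the threshold.

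The Gadd45a promoter held 1779, 1701 and 2352 in Naive, 2461, 2656 and 2639 in N+P C1, 2203, 2371 and 2537 in N+P C5, 1223, 1717, 1984 and 2107 in Sensitized, 1875, 1338, 1146 and 1251 in S+P C4, then 1194, 932, 1032 and 1064 in S+P C5, and 885, 798, 880 and 707 in S+P C7. The S+P C5 and S+P C7 libraries lay below all N+P and Naive libraries, with S+P C5 -1.16 ± 0.16 against N+P C5 (adjusted p 2.31e-11) and S+P C7 -1.11 ± 0.15 against Sensitized (2.23e-11). The other promoters called here were also lower in S+P C5. Means were 2931 ± 106 in N+P C5 against 1254 ± 259 in S+P C5 at Tle1, 1820 ± 257 and 719 ± 153 at Hpgds, 2327 ± 191 and 997 ± 135 at Tiam1, and 1063 ± 130 and 563 ± 100 at Zfp13.

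**Figure D5:**
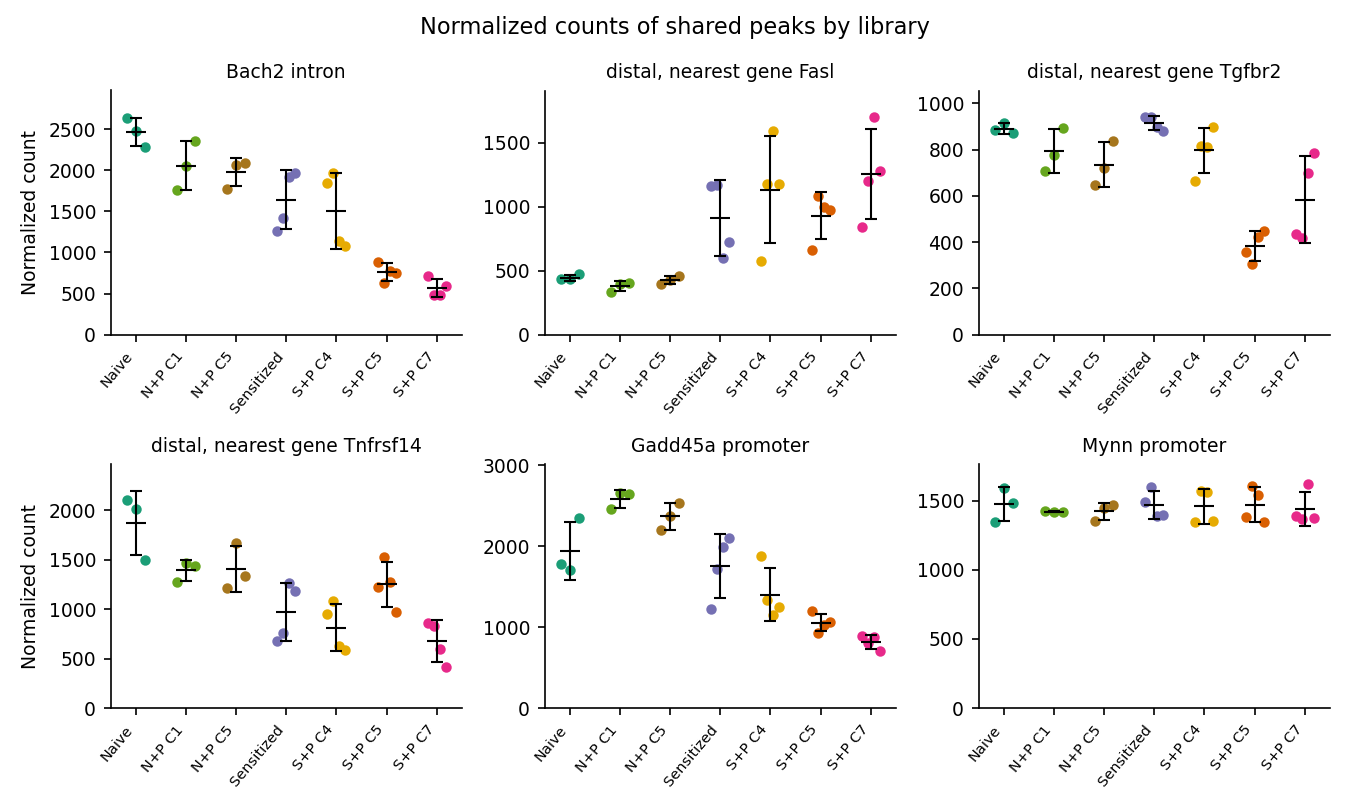
Normalized count of 6 shared peaks in each of the 25 libraries by group, with points for libraries, a line for the group mean and bars of 1 SD. The Mynn promoter lies between 1344 and 1619 in all libraries, while the Bach2 peak falls to 478 to 890 in the PD1+ S+P groups.

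Small shifts were far more frequent than calls between these C5 groups. At an adjusted p under 0.1 alone 1945 shared peaks passed, 59.9%, against 63.8% of all peaks, 691 higher and 1254 lower (4272 higher and 4353 lower of all peaks), with a median size of 0.36 on the log2 scale (1.28-fold). Promoters of Zfp zinc-finger genes were lower for the most part. Of the 79 genes with a shared promoter, 55 were lower and 7 higher, with a median log2 difference of -0.37, against 678 higher and 1229 lower of 3170 genes and a median of -0.075 over all genes with a shared promoter. With size factors from the shared peaks it was 47 lower and 10 higher (median -0.29), against 940 and 970 over all, and with loess offsets 45 and 13 (-0.25), against 740 and 1078, so the balance over all genes turned with the scaling. In S+P C7 vs Sensitized 33 of these Zfp genes were lower and 8 higher (median -0.18, against 841 higher and 713 lower of all), and in Sensitized vs Naive 7 lower and 1 higher (median 0.0023, against 65 higher and 154 lower of all, with a median of -0.01). Ribosomal protein genes were split, 9 higher and 10 lower of 29, spliceosome genes 5 and 11 of 28, chaperones 8 and 11 of 30, and mitochondrial ribosome genes 1 and 12 of 23. Across the shared peaks the log2 difference went with log length at r -0.369, and its part here was likewise not tested.

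Within S+P mice, S+P C5 vs S+P C4 gave 0 shared peaks higher and 9 lower (5.12% of all peaks were called, 3.12% higher and 2.0% lower). S+P C7 vs S+P C5 gave 0 of either (2.38%, with 0.266% higher and 2.11% lower). On adjusted p alone 151 and 149 passed (13.3% and 8.93% of all), and by edgeR 137 and 89 (1520 and 856 of all peaks). Of the 9, 3 were the Rn18s-rs5 peak and both peaks near Lrrc4c, with calls that ended without S+P C4 replicate 1, and without that library, or without S+P C5 replicate 2, 4 calls were left in all. With the replicate number as a block these 3 were not called either (-0.81 for Rn18s-rs5, -1.0 and -1.10 near Lrrc4c). The Bach2 call was lost without S+P C4 replicate 1 or 2 or S+P C5 replicate 2 (-0.82 to -0.90). The others were Tgfbr2, Fxyd3, Rap2b, Maml2 and Tle1. At the peak 13275 bp from Fxyd3, S+P C4 held 419, 578, 666 and 679 and S+P C5 227, 191, 219 and 331, with no overlap (-1.28 ± 0.22, adjusted p 8.98e-07). In S+P C7 vs S+P C5, 421 shared peaks passed an unadjusted p under 0.05 (2494 of all peaks) and edgeR called 1, a peak near Ramp3 (-0.91). The fit to both groups alone called 1 that was higher in S+P C7, an intergenic peak nearest to Lef1 (0.90, adjusted p 1.97e-07). Leaving out S+P C5 replicate 1, 3 or 4 or S+P C7 replicate 1, 2 or 3 gave 1 to 3 calls, among these 3 peaks: the Lef1 peak higher in 4 of them (0.92 to 1.00), and those near Ramp3 and Tnfrsf14 lower. With the replicate number as a block 1 peak was called, that near Tnfrsf14 (-0.92), with 1222, 1526, 1274 and 975 in S+P C5 but 860, 831, 596 and 413 in S+P C7. Within the bound were 3230 and 3235 shared peaks (88.6% and 90.6% of all).

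The step from Sensitized to S+P C5 was set against the step from Naive to N+P C5 in the same fit, as the difference of the C5 steps. The labels give Naive and Sensitized no split by PD1 or CD73, so gate and pregnancy cannot be told apart in either step. Called were 27 shared peaks, 6 higher and 21 lower, where 5.97% of all peaks were called (3.04% higher and 2.93% lower), and without Sensitized replicates 3 and 4 there were 6. This count moved by over 1.5 times without single libraries, and was 110, 7 and 16 without Naive replicate 3, 2 and 1, 92 and 8 without Sensitized replicate 1 and 4, 44 without N+P C5 replicate 1, and 13 and 44 without S+P C5 replicate 2 and 4. The split was 12 and 12 by total counts, 14 and 9 by size factors of the shared peaks, and 16 and 9 with loess offsets. The Gadd45a promoter was among them (-1.02 ± 0.23, adjusted p 0.0012), as were the Tgfbr2 peak (-0.97 ± 0.25, adjusted p 0.00443) and the Tle1 promoter (-1.22 ± 0.36, adjusted p 0.0117). These comparisons share libraries, so their calls are not independent of each other.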

How the data were processed

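Open chromatin was measured by bulk ATAC-seq in 25 libraries of 7 groups. Per the submitters' processing notes, the authors trimmed reads with cutadapt 3.4, aligned them with Bowtie2 2.2.9 to GRCm39, removed duplicates with Picard 2.21.8, called peaks with Genrich 0.6.1, merged them with bedtools 2.27.1 and counted reads with deepTools. The authors deposited raw counts per merged peak for each library, and a list per group, pooled over its libraries by a reproducibility method, with a score, a signal and a p-value and q-value per peak. Peaks shared by all 7 lists were found by an overlap of at least 1 bp and annotated with GENCODE M39, of the same build. Per the study's methods, reads without a unique place had been removed before counting, so counts at multi-copy sequence are uncertain.

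Counts were fitted with DESeq2 1.42.0 in R 4.3.3, in 1 fit over the 25 libraries with group as the term, median-of-ratios size factors and independent filtering, and p-values were adjusted by Benjamini-Hochberg over all peaks tested. Calls needed an adjusted p under 0.1 and a log2 fold change over 0.9 in size. The bound was tested with the same fit against 0.9 without independent filtering. edgeR 4.0.16 (quasi-likelihood, TMM) was an alternative, as were total counts, size factors from the shared peaks, loess offsets, fits to both groups alone, a replicate block, leaving out each library, and stricter membership. Leaving out Sensitized replicates 3 and 4 and the comparison of C5 steps were added after seeing the data. The scripts were tested on simulated data. Normalized counts are counts divided by the size factor, and values are given with SD between libraries or SE of the fit. Depth in peaks was 2430890 to 25419715 counts per library. Wilson intervals cover counting error only. Same-numbered libraries deviated together, with every correlation over 0.1, in N+P C5 and N+P C1 (0.108 to 0.400), S+P C5 and S+P C4 (0.103 to 0.572) and S+P C7 and S+P C5 (0.522 to 0.771). The numbers were therefore taken as pairs in these groups. The labels do not state such pairs, and libraries of unlike number were not compared in this way.

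Peaks named in the text are up to 2 called peaks in each direction per comparison with the smallest adjusted p and no overlap between groups, the 4 densest and the 3 most even in and outside promoters (the latter with a mean count above the shared median), and promoter peaks of the T cell lists. Other called peaks were named after their values were seen. A peak said to be near a gene is named by its nearest protein-coding gene start, which can be far away (340214 bp at Cblb). The members and gene lists were chosen with earlier results of these data known. Some items that these rules name are not reported here.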

Additional observations from a re-analysis of the deposited data

Results flagged for a closer look

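In groups of 4 libraries, 104 sets of values were searched for a library far from the others, by the gap to its nearest neighbor as a share of the range of the group, and 9 were found (8.65%), where chance gives about 1 in 20. S+P C4 replicate 1 accounted for 6 of them. It was high at the Rn18s-rs5 peak (ratio 0.977), at the satellite peak near Lrrc4c and its neighbor (0.89 and 0.881) and on the contig MU069435.1 (0.882), and low at the Otud4 promoter (1245 against 1559 to 1590, ratio 0.91) and at the Enpp6 peak (609 against 802 to 826, ratio 0.89). The others were S+P C7 replicate 3 at the Mynn promoter (0.925), Sensitized replicate 1 at the Fxyd3 peak (577 against 453 to 474, ratio 0.831) and S+P C5 replicate 4 at the Ext1 peak (706 against 888 to 921, ratio 0.845).

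The step from Sensitized to S+P C5 differed from the step from Naive to N+P C5, by the test of the difference in DESeq2, at 12 peaks that the text or its calls name. Gate and pregnancy cannot be told apart in these steps, and the 27 calls over the shared peaks became 7 to 110 without single libraries and 6 without Sensitized replicates 3 and 4. The difference was negative at the promoters of Tle1 (-1.22, adjusted p 0.0117) and Gadd45a (-1.02, adjusted p 0.0012) and at peaks nearest to Diaph2 (-1.20), Rap2b (-1.07), Mettl4 (-1.01), Tgfbr2 (-0.97), Zfp97 (-0.97), Fkbp3 (-0.95), Sox5 (-0.95) and Maml2 (-0.94). It was positive at peaks nearest to Rabggta (1.17, adjusted p 0.00149) and Cstad (1.03, adjusted p 0.0164). Adjusted p-values of the peaks given without one ran from 0.00393 to 0.0406.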

How the results depend on the processing

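No count or named fold change was reversed, but scaling turned the balance of higher and lower calls for S+P C5 vs N+P C5 (14 and 20, but 22 and 14 by total counts, 25 and 13 by shared-peak size factors and 29 and 12 with loess offsets) and in the difference of the C5 steps (6 and 21, but 12 and 12, 14 and 9, and 16 and 9). Membership moved most: with list peaks at q under 0.05, 371 peaks were shared, with 89.5% promoters, 79.8% CpG-island-like and 8.24% of counts, 267 differing among groups, and 369 within the bound, or 370 for S+P C5 vs Sensitized, 367 for S+P C7 vs Sensitized and 352 for S+P C5 vs N+P C5. Against Sensitized, calls were then 0 for both S+P C7 and S+P C5, with 1 for S+P C4, and they were 0 for Sensitized vs Naive, 3 for S+P C5 vs N+P C5 and 2 for S+P C5 vs S+P C4. With 50% cover they were 3 and 3 for S+P C7 and then S+P C5, 1 for Sensitized vs Naive, 13 for S+P C5 vs N+P C5 and 5 for S+P C5 vs S+P C4, with 85.0% promoters, 78.3% CpG-island-like and 33.0% of counts. Promoters within 500 bp made up 79.0%, and CpG-island-like centers of 200 and 500 bp 72.7% and 76.0%. Total counts, shared-peak size factors and loess offsets gave 1, 1 and 1 calls in N+P C1 vs Naive and 1, 2 and 2 in S+P C7 vs S+P C5, and the fit to both groups alone and edgeR gave 1 and 1 there. In S+P C4 vs Sensitized an adjusted p under 0.05 gave 1, both groups alone 0, where the Rn18s-rs5 peak had no adjusted p but a log2 fold change of 2.33, and edgeR 1. Without Sensitized replicates 3 and 4, Sensitized vs Naive gave 18. These causes were not tested, apart from the fewer peaks that stricter membership leaves.

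With the replicate number as a block, calls were 0 in N+P C5 vs N+P C1, 7 in S+P C5 vs S+P C4 and 1 in S+P C7 vs S+P C5, where the numbers were taken as pairs. Elsewhere the numbers were not taken as pairs, and the block gave 5 in Sensitized vs Naive, 0 in N+P C1 vs Naive, in N+P C5 vs Naive and for S+P C4 vs Sensitized, 6 in S+P C5 vs Sensitized, 13 in S+P C7 vs Sensitized and 45 for S+P C5 vs N+P C5.

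Leaving out 1 library at a time gave 1 to 9 calls in Sensitized vs Naive (5 without Naive replicate 3, 1, 9 and 7 without Sensitized replicate 2, 3 and 4), 0 to 2 in N+P C1 vs Naive (2 without Naive replicate 3), 0 to 0 for N+P C5 vs Naive and for N+P C5 vs N+P C1, 1 to 3 in S+P C4 vs Sensitized (1 without Sensitized replicate 2, 3 or 4 or S+P C4 replicate 1), from 4 to 10 for S+P C5 vs Sensitized (10 without S+P C5 replicate 1), 9 to 19 in S+P C7 vs Sensitized (19 without Sensitized replicate 1), 27 to 50 for S+P C5 vs N+P C5, 4 to 10 in S+P C5 vs S+P C4 (4 without S+P C4 replicate 1 or S+P C5 replicate 2) and 0 to 3 in S+P C7 vs S+P C5 (3 without S+P C7 replicate 1 or 2). Peaks within the bound numbered 3205 to 3233, 3162 to 3236, 3170 to 3239, 3241 to 3242, 3233 to 3239, 3205 to 3224, 3158 to 3209, 3030 to 3113, 3225 to 3232 and 3227 to 3238 in the same order, and those differing among groups 2261 to 2542. Membership could not be recomputed without single libraries, since the lists pool them. Depth was lowest in S+P C4 replicate 1.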
